A study of Mus musculus with 12 samples.

Results

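The genes described here encode solute carriers of the SLC1, SLC3, SLC6, SLC7, SLC36, SLC38 and SLC43 families, most of which move amino acids across the cell surface or the lysosomal membrane. They were taken by symbol, as every Slc1a, Slc3a, Slc6a, Slc7a, Slc36a, Slc38a and Slc43a gene in the count tables, which gave 59 of 23479 gene symbols. The set was chosen with earlier results of these data known. Of these, 29 had at least 30 reads summed over the 12 libraries, 12 had fewer and 18 had no read. Of the 29, 25 had enough reads for the test used below, and 4 (Slc7a4, Slc7a7, Slc7a8 and Slc36a3) did not. At the limit of 30 reads, Slc7a4 lay just inside with 30 and Slc1a7 just outside with 29.

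RNA was measured by sequencing of total RNA in CD4+ T cells isolated from mouse spleen by removal of other cells. The cells came from wild-type C57BL/6J mice (WT) or from Sirt2-/- mice on the C57BL/6 background (KO). Sirt2 encodes a deacetylase that uses NAD. They were taken directly after isolation (0 h, with no culture) or after 24 h in RPMI medium with serum, in plates coated with 5 µg/ml of an antibody to CD3, which engages the T cell receptor. This gave 4 groups of 3 libraries, named here by genotype and time (for example, KO 24 h). No library of cells cultured for 24 h without the antibody was used here, so antibody, culture and time cannot be told apart. Whether replicates are separate mice is not stated in the labels, and if they are not, the p-values reflect only technical spread among the 12 libraries.

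A resting T cell is small and makes little protein, and after stimulation it grows and divides, which raises its need for amino acids. Large neutral amino acids such as leucine enter through a light chain of the SLC7 family that is bound by a disulphide bridge to a heavy chain of the SLC3 family, cationic amino acids enter through other SLC7 proteins, and glutamine enters through SLC1 and SLC38 proteins. Amino acids inside the cell are sensed at the lysosome by mTORC1, a kinase complex that drives growth, and loss of Slc7a5 in mouse T cells is known to impair their expansion.

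Between 3.63 and 10.0 megareads fell in genes, depending on the library. The members took 991 to 1090 CPM (read counts scaled to the size and composition of the library) in the libraries at 0 h and 1960 to 2290 CPM at 24 h. For WT their summed level was 1070 ± 20.7 CPM at 0 h against 2180 ± 95.5 at 24 h, and for KO 1040 ± 43.4 against 2020 ± 83.8 (SD, n = 3). Sirt2 itself stood at 62.2 to 85.3 CPM in the 6 WT libraries and at 9.03 to 19.6 CPM in the 6 KO libraries, so every library matched its genotype label. The share of reads taken by the ribosomal RNA gene Rn45s was 12.5% to 17.5% at 0 h and 7.95% to 9.55% at 24 h. No member gained or lost a test call when that gene was left out of the library sizes, though Slc1a4 then left the group gained from near zero described below. In bulk RNA, a larger share of expressing cells and more RNA per cell cannot be told apart.

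**Figure D1:**
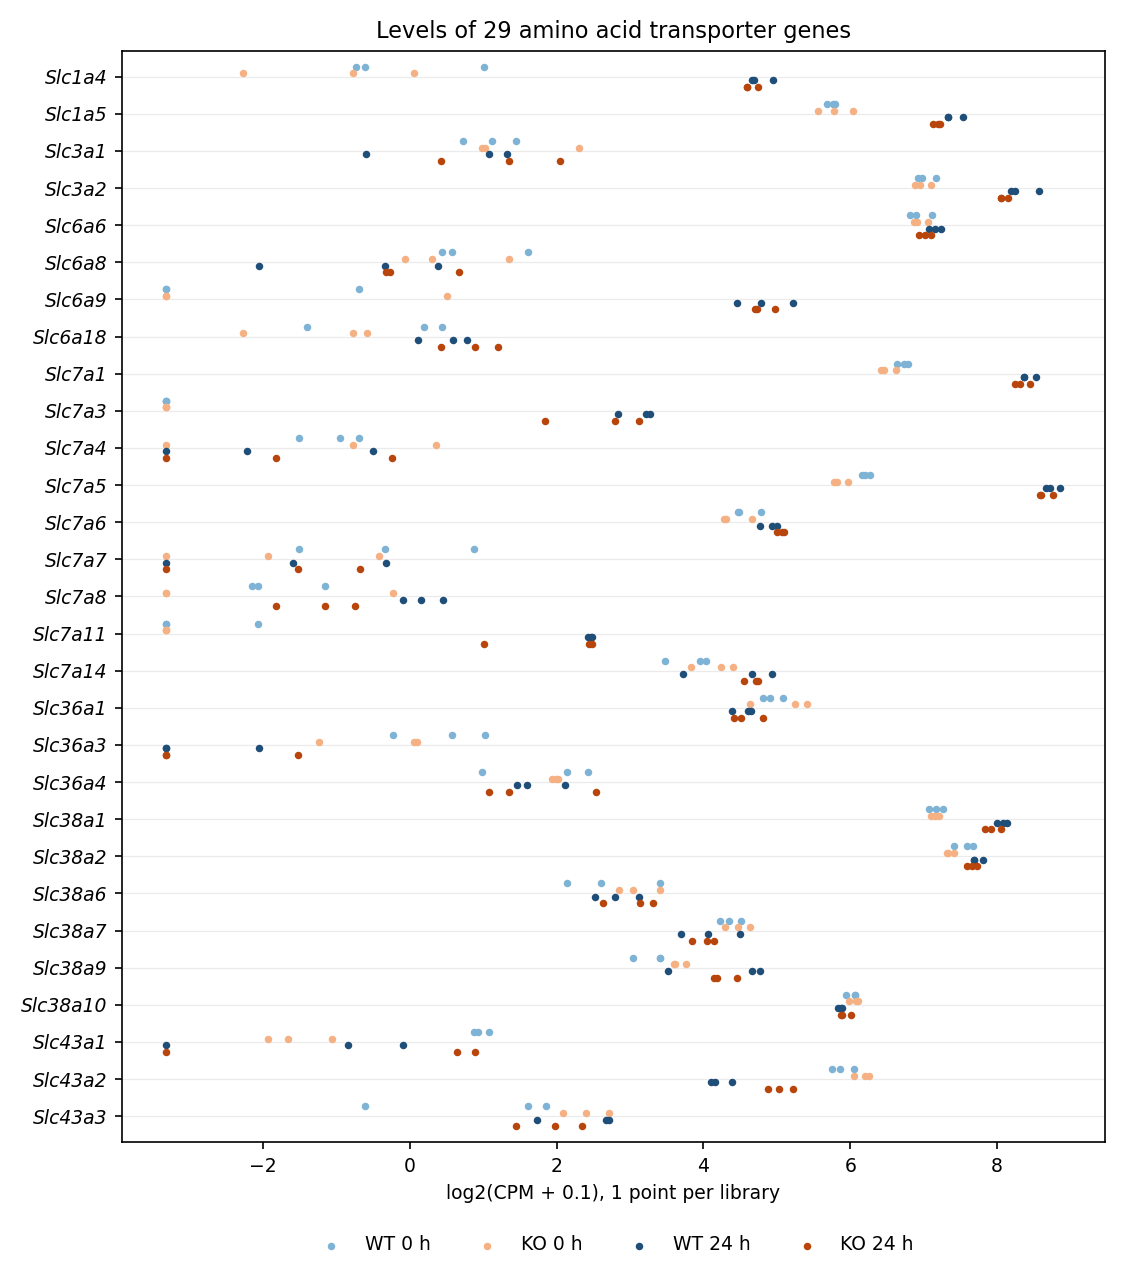
Levels of the 29 members with at least 30 reads, as log2(CPM + 0.1) on the horizontal axis, with 1 point per library coloured by group. Slc7a5, Slc7a1, Slc3a2, Slc1a5 and Slc38a1 lay at the high end and shifted right at 24 h, Slc43a2 shifted left, and Slc1a4, Slc6a9, Slc7a3 and Slc7a11 moved from near zero to clear levels.

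After 24 h, more members had risen than fallen in both genotypes, led by Slc7a5, Slc7a1, Slc1a5, Slc3a2 and 4 genes that were near zero at 0 h. In WT, 12 of the 25 tested members rose and 2 fell, against 20.2% of all genes tested that rose and 20.5% that fell (edgeR's quasi-likelihood test, Benjamini-Hochberg adjusted p below 0.05). In KO, 13 rose and 2 fell, against 19.4% and 21% of all genes. These shares are the background for every count below of genes that rose or fell over time. The libraries of the 2 times did not overlap for 16 members in WT and 16 in KO, beside 49.3% and 49.4% of all genes. The median log2 change of the tested members was 0.63 in WT and 0.61 in KO, beside 0.00 for all genes in both. Slc7a3, and in KO also Slc7a11, had no read at 0 h, so their changes are lower bounds. Those bounds lie above the medians, so using them could not move the medians. A member that had enough reads only at 24 h could enter the test only by differing, so these counts describe the members that were tested and not all 59.

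**Figure D2:**
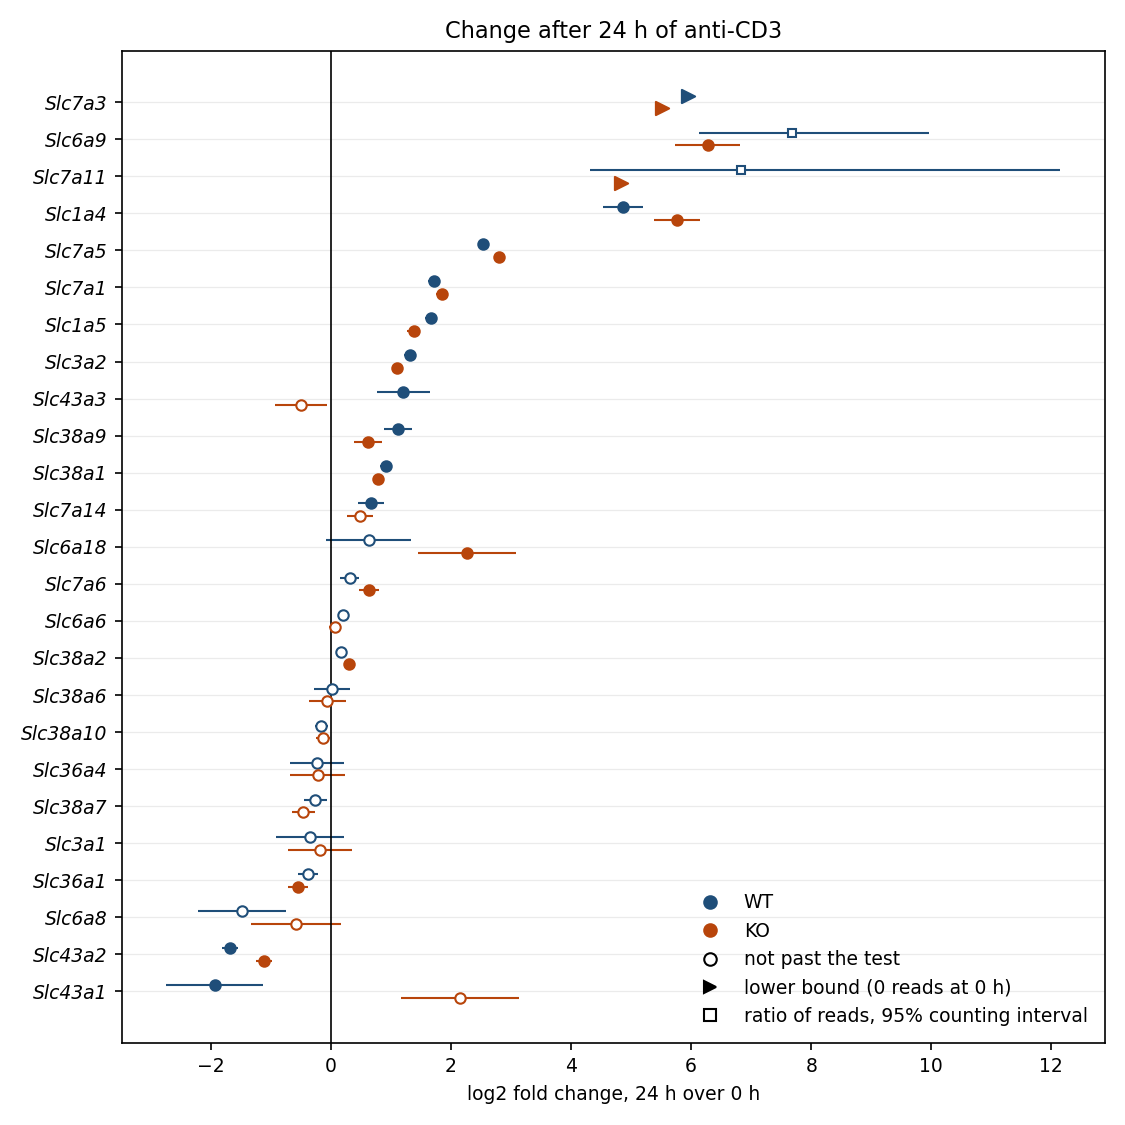
Change from 0 h to 24 h of the 25 tested members, as log2 fold change with WT and KO in separate colours, ordered by the fitted change in WT. Filled circles passed the test, open circles did not, and bars on circles are standard errors derived from that test. Triangles are lower bounds for genes with no read at 0 h. Squares are ratios of reads with 95% counting intervals for genes with 1 to 3 reads at 0 h. Slc43a2 lay left of 0 in both genotypes, and Slc43a1 and Slc43a3 lay on opposite sides of 0 in WT and KO.

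Members gained from near zero were defined by a mean below 1 CPM in both 0 h groups and a rise that passed the test in both genotypes. There were 4: Slc1a4, an exchanger of alanine, serine and cysteine; Slc6a9, a sodium-driven glycine carrier best known from the brain; Slc7a3, a carrier of arginine and lysine; and Slc7a11, the light chain that imports cystine in exchange for glutamate. Their low level at 0 h and their passing of the test are part of that definition and not findings. With so few reads at 0 h, they entered the test only through the 24 h groups. Just inside the limit was Slc1a4 with a mean of 0.986 CPM in WT 0 h. It left the group with near zero set to 0.5 CPM, with Rn45s left out of the library sizes, or without replicate 2 or replicate 3 of WT 0 h.

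Slc1a4 had 1.90, 0.554 and 0.50 CPM in the WT libraries at 0 h, beside 0.107, 0.484 and 0.940 CPM in the KO libraries at that time. At 24 h the WT libraries stood at 25.1, 25.7 and 30.8 CPM and the KO libraries at 23.9, 24.1 and 26.6 CPM. Every library at 24 h thus stood far above every library at 0 h, and the genotypes overlapped at both times. Slc1a4 rose by 4.87 on the log2 scale in WT (SE 0.330, adjusted p = 8.07e-17, edgeR) and by 5.76 in KO (SE 0.379, adjusted p = 3.02e-17).

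Slc6a9 had 3 reads in WT 0 h, all in replicate 1 (0.519 CPM), and 7 reads in KO 0 h, all in replicate 3 (1.32 CPM). After 24 h the values were 21.9, 27.4 and 37.1 CPM for WT, and 31.3, 26.4 and 25.9 CPM for KO. It thus had no read in 4 of the 6 libraries at 0 h and reads in all 6 at 24 h, where the genotypes overlapped. The ratio of scaled reads at 24 h to 0 h was 206 in WT (95% exact counting interval 70.1 to 1000, adjusted p = 3.42e-09 with edgeR). In KO the ratio was 83.4 (40.1 to 209, adjusted p = 9.83e-09 with edgeR). Exons of Slc6a9 overlap those of B4galt2 and Ccdc24 on the opposite strand in the GENCODE annotation, but these had only 7 and 4 reads over the 12 libraries. Reads of Gm17114, which also overlaps it, cannot be told from its own, since the strand setting of the counts is not given in the sources used here.

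Slc7a3 had no read in any of the 6 libraries at 0 h. At 24 h it stood at 7.02, 9.52 and 9.20 CPM in WT, from 184 reads, and at 8.59, 6.81 and 3.48 CPM in KO, from 100 reads. Against a floor of 3 counts over the group, which came to 0.143 CPM for WT at 0 h (0.144 CPM for KO), it was at least 61.7-fold higher at 24 h in WT and at least 45.7-fold higher in KO. It passed edgeR's test in both (adjusted p = 6.56e-11 and 8.25e-10), but its reads at 24 h alone let it enter that test, so these p-values are no separate support.

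Slc7a11 had 1 read in WT 0 h and none in KO 0 h. With stimulation WT reached 5.42, 5.50 and 5.30 CPM, while KO reached 5.30, 1.92 and 5.47 CPM. The libraries of WT 24 h lay close together, while replicate 2 of KO 24 h was lower than the other 2. The ratio in WT was 114 with an exact counting interval of 20 to 4530 (113 reads against 1, edgeR adjusted p = 4.78e-08), and in KO the level was at least 28.3-fold higher (62 reads against 0, adjusted p = 1.17e-07). Floors and intervals cover counting error only.

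**Figure D3:**
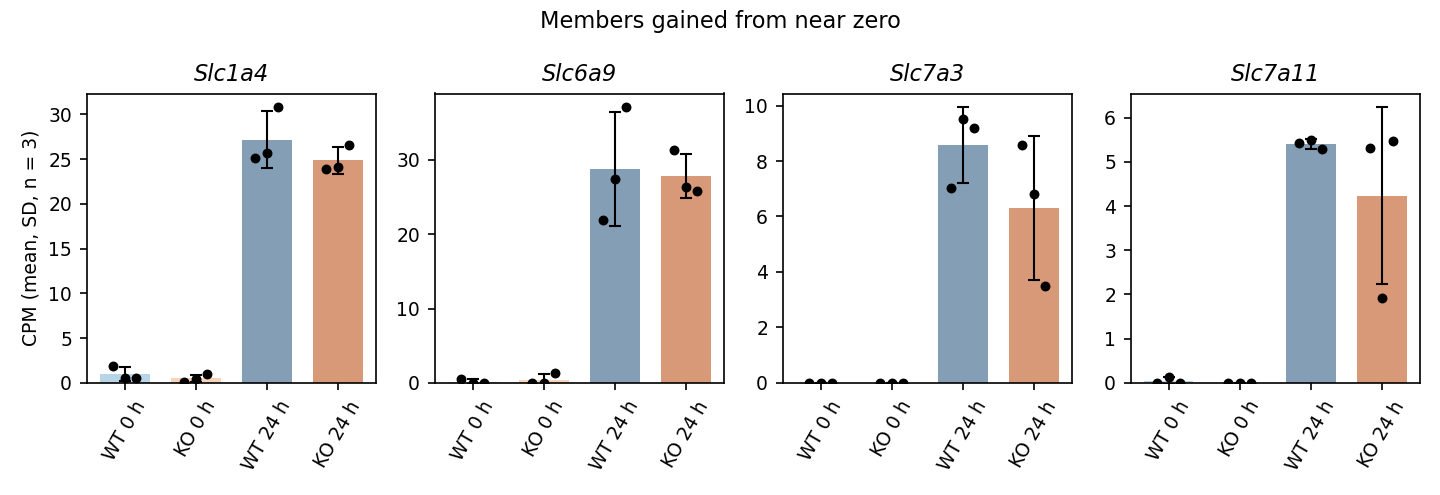
CPM of Slc1a4, Slc6a9, Slc7a3 and Slc7a11 in the 12 libraries, with 1 point per library, bars for the group mean and error bars for the SD (n = 3). Each of the 4 genes had a mean below 1 CPM in both 0 h groups, and all its 24 h libraries lay above all its 0 h libraries. The highest value at 0 h was that of Slc1a4 in replicate 1 of WT (1.90 CPM). The lowest at 24 h was that of Slc7a11 in replicate 2 of KO (1.92 CPM).

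Promoters of members were taken from RefSeq, assembly GRCm38.p6, as the 250 bases before the start of transcription. The table held 41 of the 59 members. Of the 29 members with at least 30 reads, 9 had no entry and were not searched: Slc1a5, Slc38a1, Slc43a3, Slc6a18, Slc6a6, Slc6a8, Slc7a3, Slc7a4 and Slc7a5. They were searched on both strands for TGATGNAA, the C/EBP-ATF response element bound by ATF4 with a partner, for the E-box CACGTG, which MYC can bind, and for the AP-1 element TGACTCA. Of 32851 promoters searched, 3.45% held TGATGNAA, and among members Slc7a11 and Slc7a7 did. At 2 or more places it stood in 13 promoters, or 0.0396%, and Slc7a11 was the member among them. Its promoter (chr3:50443614-50443863, minus strand) is shown with both matches in capitals, the first on the strand of the gene 66 to 59 bases before the start and the second on the other strand 47 to 40 bases before it. The promoter of Slc1a4 (chr11:20332714-20332963, minus strand), which held none of the 3 motifs, is shown for contrast with another gene gained at 24 h.
Slc7a11: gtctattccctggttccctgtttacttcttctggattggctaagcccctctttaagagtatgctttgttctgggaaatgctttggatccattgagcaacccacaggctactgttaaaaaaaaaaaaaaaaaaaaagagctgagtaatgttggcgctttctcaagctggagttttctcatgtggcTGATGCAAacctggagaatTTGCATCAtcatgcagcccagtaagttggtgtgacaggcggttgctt
Slc1a4: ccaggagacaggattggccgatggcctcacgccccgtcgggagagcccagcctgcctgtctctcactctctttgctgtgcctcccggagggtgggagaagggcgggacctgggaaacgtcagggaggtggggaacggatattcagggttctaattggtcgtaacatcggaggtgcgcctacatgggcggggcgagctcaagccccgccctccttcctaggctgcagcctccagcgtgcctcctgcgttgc
None of the 3 promoters listed for Slc6a9, nor that of Slc3a2, nor the 2 of Slc43a2, held any of these letters within the window. CACGTG stood in 6.02% of all promoters and in those of 8 members, of which Slc36a1, Slc38a7, Slc43a1 and Slc7a14 had at least 30 reads. TGACTCA stood in 4.46% of all promoters and in those of 5 members, of which Slc7a1 and Slc3a1 had at least 30 reads. The percentages count promoters, of which a gene can have several, while a member was counted once if any of its promoters matched. Percentages and member counts are therefore not like for like. Binding to these promoters was not measured.

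Among heavy chains and their light chains, Slc7a5 and Slc3a2 had the highest levels per length at 24 h. Slc7a5 encodes the light chain that carries leucine and other large neutral amino acids, and Slc3a2 encodes the heavy chain that brings it to the surface. Of the 10 genes of this kind, 5 were tested, of which 3 rose in WT (Slc7a11, Slc7a5 and Slc3a2) and 4 in KO (Slc7a6 as well), and none fell in either, at an unadjusted p of 0.05 or with DESeq2 likewise. Slc7a11 entered the test only through its reads at 24 h, so its place among the rising genes is no separate support.

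At 0 h Slc7a5 stood at 73.7, 71.5 and 77.1 CPM in WT and at 56.2, 54.8 and 62.8 CPM in KO. The stimulated libraries had 421, 409 and 465 CPM (WT) or 386, 437 and 390 CPM (KO). Each 24 h library stood above each 0 h library, and the genotypes overlapped at 24 h but not at 0 h. Slc7a5 rose by 2.54 on the log2 scale in WT (SE 0.0912, edgeR adjusted p = 7.99e-27) and by 2.81 in KO (SE 0.0936, adjusted p = 5.34e-28).

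In unstimulated cells Slc3a2 had 126, 121 and 144 CPM with Sirt2 and 138, 123 and 118 CPM without it. At 24 h the WT libraries stood at 292, 303 and 379 CPM and the KO libraries at 265, 285 and 266 CPM. The 24 h libraries lay above all 0 h libraries, with replicate 3 of WT 24 h the highest. Slc3a2 rose by 1.32 in WT (SE 0.0953, edgeR adjusted p = 7.25e-16) and by 1.11 in KO (SE 0.0961, adjusted p = 2.71e-13).

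The heavy and light chain were also compared per kilobase of exon, since a longer transcript yields more reads. At 0 h the level per length of Slc7a5 divided by that of Slc3a2 was 0.502, 0.509 and 0.460 in WT and 0.351, 0.382 and 0.459 in KO. At 24 h the quotient was 1.24, 1.16 and 1.05 in WT and 1.25, 1.32 and 1.26 in KO. The light chain was thus below the heavy chain in all 6 libraries at 0 h and above it in all 6 at 24 h, by RNA per length. The mean quotient went from 0.490 ± 0.0267 to 1.15 ± 0.0925 for WT and from 0.397 ± 0.0556 to 1.27 ± 0.0360 for KO (SD, n = 3). The genotypes were separated at either time only narrowly (0.460 against 0.459 at 0 h, 1.24 against 1.25 at 24 h), so no difference between them is read from this. These quotients take the union of exons of each gene in GENCODE as its length, so the point at which they cross 1 depends on which exons the cells use.

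**Figure D4:**
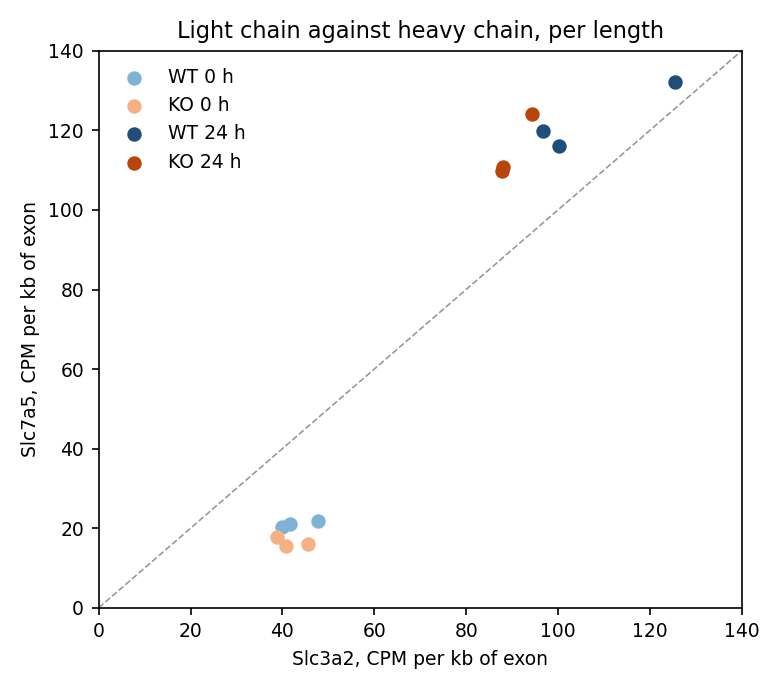
Slc7a5 against Slc3a2, both in CPM per kilobase of exon, with 1 point per library and the dashed line where both are equal. The 6 libraries at 0 h lie below the line and the 6 at 24 h above it.

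The other light chains were lower. Slc7a6, which exchanges cationic for neutral amino acids, went from a mean of 23.9 to 29.9 CPM for WT and from 21.4 to 33.2 CPM for KO. It rose in KO by 0.64 (SE 0.16, edgeR adjusted p = 0.00121), and its value in WT was 0.32 (adjusted p = 0.105). The difference between these changes did not pass (log2 0.32, SE 0.224, adjusted p = 0.996). Slc3a1, the heavy chain of the kidney, had means of 1.66 to 2.88 CPM over the groups and passed in no comparison, and its exons overlap those of the gene Prepl on the opposite strand. Slc7a7, with 35 reads in all, overlaps the abundant gene Oxa1l in the same way, and Slc7a8 also had 35 reads, with its highest group mean in WT 24 h (1.03 CPM).

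Among the cationic carriers, Slc7a1, the main arginine and lysine carrier of most cells, took the most reads. The 0 h libraries of WT held the gene at 106, 99.4 and 110 CPM, those of KO at 85.3, 88.0 and 98.2 CPM. After 24 h the values were 332, 332 and 372 CPM for WT, and 319, 350 and 303 CPM for KO. All 24 h libraries lay above all 0 h libraries. Slc7a1 rose by 1.71 in WT (SE 0.0896, edgeR adjusted p = 8.62e-21) and by 1.84 in KO (SE 0.0912, adjusted p = 1.06e-21).

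Slc7a14, a relative of these carriers found on internal membranes, had means of 14.3 and 23.0 CPM for WT at the earlier and later time, and of 18 and 25.4 CPM for KO. It rose in WT by 0.66 (SE 0.217, edgeR adjusted p = 0.0128), but its WT libraries overlapped (11.1 to 16.3 CPM against 13.1 to 30.5 CPM) and the call ended without replicate 1 of WT 0 h and without replicate 1 or 2 of WT 24 h. In KO its value was 0.48 (edgeR adjusted p = 0.0749), and its libraries did not overlap (14.1 to 21.1 CPM against 23.4 to 26.7 CPM). The value in KO passed with no filter on low counts and in a fit of only the 2 groups compared. It also passed without replicate 1 of KO 0 h and without replicate 3 of WT 24 h. Slc7a4 had 30 reads in all, spread over the 4 groups at means of 0.239 to 0.554 CPM.

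Of the 7 members of the SLC1 family, those with enough reads were the neutral exchangers Slc1a4 and Slc1a5, which carries glutamine, and both rose. Slc1a4 entered the test only through the 24 h groups, so its rise is no separate support. Slc1a5 had 55.2, 54.2 and 51.4 CPM in the WT libraries at 0 h, beside 65.3, 46.9 and 54.7 CPM in the KO libraries at that time. With stimulation WT reached 161, 162 and 186 CPM, while KO reached 140, 147 and 150 CPM. It rose in every library relative to every 0 h library, by 1.66 in WT (SE 0.105, edgeR adjusted p = 7.6e-18) and by 1.38 in KO (SE 0.106, adjusted p = 6e-15). Of the glutamate carriers of this family, none reached 30 reads.

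In the SLC38 family of sodium-coupled neutral carriers, 6 of 11 members were tested, and 2 rose in WT and 3 in KO. Slc38a1 and Slc38a2, which bring glutamine, alanine and serine into cells, took the most reads of all members at 0 h. For WT, Slc38a1 had 153, 144 and 134 CPM before and 282, 256 and 272 CPM after stimulation, and for KO 149, 137 and 143 before and 241, 267 and 228 after it. It rose by 0.91 in WT (SE 0.0871, edgeR adjusted p = 4.65e-12) and by 0.78 in KO (SE 0.0878, adjusted p = 4.17e-10), with no overlap between times. The means of Slc38a2 were 189 and 213 CPM for WT at the earlier and later time, and 164 and 203 CPM for KO. Its rise passed in KO (0.31, SE 0.0874, edgeR adjusted p = 0.00377), and its value in WT was 0.17 (adjusted p = 0.117).

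Slc38a9 encodes a lysosomal protein that senses arginine for mTORC1. At 0 h the gene stood at 10.6, 10.5 and 8.13 CPM in WT and at 13.5, 12.1 and 12 CPM in KO. The stimulated libraries had 25.1, 27.1 and 11.3 CPM (WT) or 21.8, 18.2 and 17.7 CPM (KO). Replicate 3 of WT 24 h stood well below the other 2 of its group, though still above WT 0 h. Slc38a9 rose by 1.12 in WT (SE 0.232, edgeR adjusted p = 0.0001) and by 0.61 in KO (SE 0.233, adjusted p = 0.0325), and the call in KO ended when replicate 2 or 3 of KO 0 h or replicate 1 or 2 of KO 24 h was left out, at adjusted p = 0.0723, 0.0648, 0.144 and 0.0503. An antisense gene, Gm47827, overlaps its exons.

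The remaining SLC38 members passed in no comparison over time. Slc38a7, which exports glutamine and asparagine from lysosomes, went from a mean of 20.5 to 17.3 CPM for WT and from 22.1 to 16.1 CPM for KO. Slc38a10, an intracellular member, went from 65.2 to 58.3 CPM and from 66.5 to 60.8 CPM, and Slc38a6 from 6.95 to 7.02 CPM and from 8.59 to 8.23 CPM, in the same order.

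Within the SLC6 family, Slc6a6, the taurine carrier, was abundant at both times, with means of 123 ± 14 and 143 ± 7.79 CPM for WT at the earlier and later time, and of 124 ± 8.87 and 130 ± 7.13 CPM for KO (SD, n = 3). Its log2 change was 0.20 in WT (SE 0.0946, edgeR adjusted p = 0.0799) and 0.07 in KO (SE 0.0961, adjusted p = 0.603). Slc6a18, a neutral carrier of the kidney, was low, going from a mean of 0.855 to 1.33 CPM for WT and from 0.385 to 1.73 CPM for KO. It rose in KO by 2.27 (SE 0.822, edgeR adjusted p = 0.0241), a call that ended without replicate 1 of KO 0 h, without replicate 1 or 2 of KO 24 h, with a minimum count of 30 and in a fit of only the 2 groups compared, and its value in WT was 0.63 (adjusted p = 0.508). Slc6a8, which carries creatine, went from a mean of 1.86 to 0.677 CPM for WT and from 1.48 to 0.974 CPM for KO, and passed in neither genotype.

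In the SLC36 family of proton-coupled carriers, Slc36a1, which acts at lysosomes, went from a mean of 30.5 to 23.4 CPM for WT and from 34.9 to 24.0 CPM for KO. It fell in KO by 0.55 on the log2 scale (SE 0.172, edgeR adjusted p = 0.00885), and its value in WT was -0.38 (SE 0.169, adjusted p = 0.0658). The WT libraries did not overlap (28.0 to 33.9 CPM at 0 h against 20.9 to 24.9 CPM at 24 h). The KO libraries overlapped, since replicate 2 of KO 0 h stood at 24.7 CPM against 28.0 CPM in replicate 1 of KO 24 h. The call in KO ended without replicate 1 of KO 0 h or replicate 2 of KO 24 h. Slc36a4 had means of 3.26 to 3.84 CPM and passed in no comparison. Slc36a3, too low for the test, had 0.750 to 1.94 CPM at 0 h in WT and 0.322 to 0.964 CPM in KO, and was at 0 in 4 of the 6 libraries at 24 h.

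In the SLC43 family, Slc43a2 fell in both genotypes, whereas more tested members rose than fell. Slc43a1 and Slc43a2 carry large neutral amino acids by facilitated diffusion, without exchange and without a heavy chain, while Slc43a3 is known to carry purine nucleobases and not amino acids. In unstimulated cells Slc43a2 had 54.0, 66.4 and 58.3 CPM with Sirt2 and 76.1, 66.4 and 73.7 CPM without it. At 24 h the WT libraries stood at 17.1, 17.8 and 20.8 CPM and the KO libraries at 37.3, 32.6 and 29.3 CPM. Every 24 h library lay below every 0 h library. Slc43a2 fell by 1.68 on the log2 scale in WT (SE 0.136, edgeR adjusted p = 3.05e-14) and by 1.12 in KO (SE 0.131, adjusted p = 1.4e-09). An antisense gene, Gm45606, overlaps its exons.

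Slc43a1 was low, with 72 reads over all libraries. For WT it had 1.73, 1.80 and 2.00 CPM before and 0, 0.459 and 0.836 CPM after stimulation, and for KO 0.214, 0.161 and 0.376 before and 1.46, 1.75 and 0 after it. The libraries of WT lay lower after stimulation, while those of KO overlapped. Within WT it fell by 1.94 (SE 0.802, edgeR adjusted p = 0.0489), a call that ended with DESeq2 (adjusted p = 0.0582), with no filter on low counts (0.0912) and without any 1 of 10 of the 12 libraries, the highest adjusted p being 0.18. In KO its value was 2.15 (SE 0.976, adjusted p = 0.0747), with replicate 3 of KO 24 h at 0.

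Slc43a3 in WT had 2.94, 0.554 and 3.50 CPM at first and 3.21, 6.42 and 6.27 CPM later, and in KO 6.43, 5.16 and 4.14 at first and 3.84, 2.62 and 4.97 later. The times overlapped in both genotypes. It rose in WT by 1.21 (SE 0.440, edgeR adjusted p = 0.0246), a call that rested on single libraries: without replicate 2 of WT 0 h the value was 0.75 (adjusted p = 0.169), and without replicate 2 or 3 of WT 24 h the adjusted p was 0.104 and 0.0823. In KO its value was -0.50 (adjusted p = 0.386).

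Per kilobase of exon, the order of members changed between the times. In WT 0 h the highest levels per length were those of Slc3a2 (43.1 ± 4.06 CPM per kb, SD, n = 3) and Slc38a2 (40.6 ± 3.59), whose libraries overlapped. Slc7a5 (21.1 ± 0.802), Slc6a6 (20.0 ± 2.27) and Slc1a5 (19.4 ± 0.718) followed, and neighbours among these overlapped too. In WT 24 h the order was Slc7a5 (123 ± 8.39 CPM per kb) and Slc3a2 (107 ± 15.7), which overlapped, then Slc1a5 (61.4 ± 5.11), then Slc7a1 (48.1 ± 3.22) and Slc38a2 (45.6 ± 2.16), which overlapped. In KO 24 h the same 5 genes led in the same order, with Slc7a5 at 115 ± 8.05 and Slc3a2 at 90.1 ± 3.72, and there these did not overlap. By reads, the 5 highest members held 64.7% of all member reads in WT 0 h and 72.6% in WT 24 h.

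Between genotypes at 0 h, none of the 25 tested members passed edgeR's test, beside 0.118% of all genes that were higher in KO and 0.228% that were lower. With so few genes called anywhere, a count of 0 among 25 is near the background and is not a result about the members. At an unadjusted p below 0.05 there were 2 higher and 4 lower members, beside 8% of all genes in either direction, and DESeq2 called 1 lower. The libraries of WT and KO did not overlap for 6 of the 25 members, beside 12.4% of all genes. Whether these shares differ from those of all genes was not tested. The gene that DESeq2 called was Slc7a5, whose 3 KO 0 h libraries lay below the 3 of WT 0 h. Its difference was -0.36 on the log2 scale (SE 0.0947), with an adjusted p of 0.1 in edgeR and 0.0496 in DESeq2. At 24 h its difference was -0.09 (SE 0.0837, edgeR adjusted p = 0.9).

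Slc43a1 and Slc43a3 had the next smallest p at 0 h. Slc43a1 was lower in KO 0 h than in WT 0 h by -2.84 (SE 0.899, edgeR adjusted p = 0.245) and Slc43a3 was higher by 1.18 (SE 0.440, adjusted p = 0.399), both with no overlap of libraries and neither past the test. The median difference of the tested members at 0 h was 0.00, as for all genes.

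At 24 h, 1 of the 25 tested members was higher in KO, Slc43a2, beside 0.182% of all genes, and none was lower, beside 0.0911%. At an unadjusted p below 0.05 there were 1 higher and 2 lower members, beside 7.06% of all genes in either direction, and DESeq2 called none lower. For 3 members the libraries of WT and KO did not overlap, beside 12.9% of all genes. The libraries of Slc43a2 given above did not overlap at 24 h, and its difference was 0.84 (SE 0.144, edgeR adjusted p = 0.0007). Under 19 other settings, which included leaving out each library in turn, the adjusted p ranged from 2.37e-05 to 0.029. At 0 h the difference was 0.27 (SE 0.123, adjusted p = 0.557), with overlapping libraries. The members lower at the unadjusted p were Slc3a2, at -0.26 (SE 0.0931, edgeR adjusted p = 0.474), and Slc1a5, at -0.22 (SE 0.10, adjusted p = 0.633), for both of which all KO 24 h libraries lay below all WT 24 h libraries. The median difference of the tested members was -0.07, and that of all genes was -0.01.

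The interaction asked whether the change over time differed between the genotypes. No member passed in edgeR's test, beside 0.00911% of all genes. At an unadjusted p below 0.05 there were 3 members with a positive and 1 with a negative value, beside 5.24% of all genes in either direction, and DESeq2 called none. The smallest p belonged to the 3 SLC43 genes, with values of 4.09 for Slc43a1 (SE 1.26, edgeR adjusted p = 0.742), 0.56 for Slc43a2 (SE 0.189, adjusted p = 0.84) and -1.70 for Slc43a3 (SE 0.618, adjusted p = 0.84). The smaller fall of Slc43a2 in KO than in WT was therefore not shown to differ between genotypes.

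**Figure D5:**
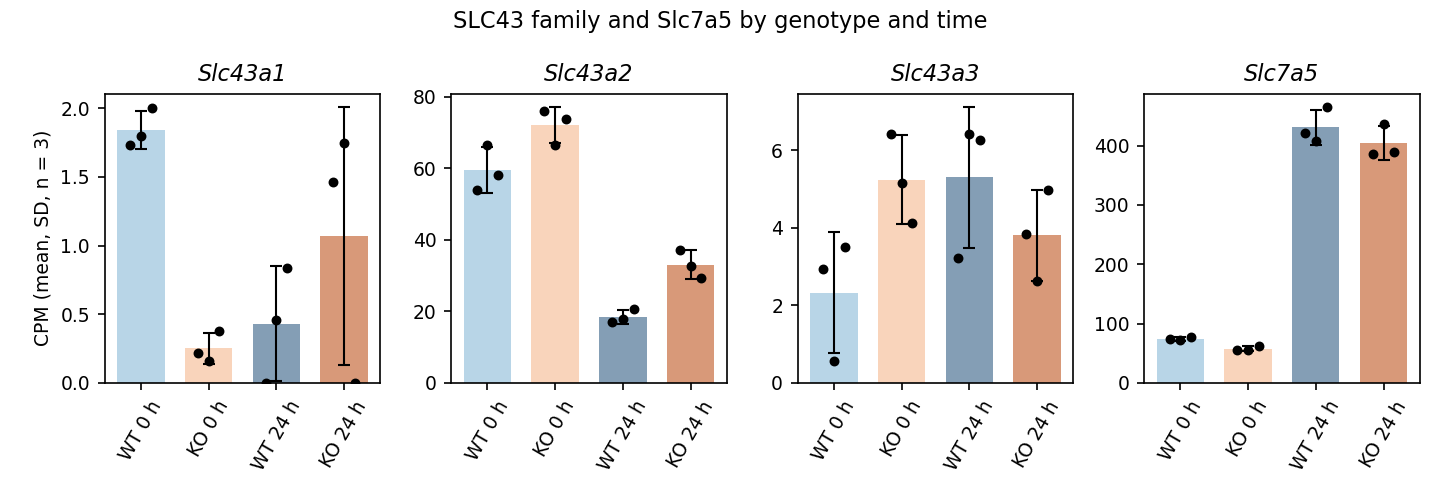
CPM of Slc43a1, Slc43a2, Slc43a3 and Slc7a5 in the 12 libraries, with 1 point per library, bars for the group mean and error bars for the SD (n = 3). Slc43a2 was higher in all 3 KO 24 h libraries (29.3 to 37.3 CPM) than in the WT 24 h libraries (17.1 to 20.8 CPM), and Slc7a5 was lower in the KO 0 h libraries than in WT 0 h.

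Genes that act with the carriers were followed in 3 further lists. Of 35 genes of amino acid sensing by mTORC1, all tested, 12 rose and 3 fell in WT (20.2% and 20.5% of all genes), and 14 rose and 4 fell in KO (19.4% and 21% of all genes). Rragd, a Rag GTPase that brings mTORC1 to the lysosome, went from 2.86 ± 0.563 to 39.3 ± 5.21 CPM in WT and from 3.12 ± 1.88 to 32.4 ± 4.85 CPM in KO (SD, n = 3), a rise of 3.77 (SE 0.248, edgeR adjusted p = 3e-17) and 3.47 (SE 0.253, adjusted p = 9.93e-16). Sesn2, a leucine sensor that restrains mTORC1, rose by 2.77 in WT (SE 0.184, adjusted p = 3.89e-17) and 2.83 in KO (SE 0.192, adjusted p = 9.43e-17). Fnip2, a partner of folliculin, rose by 1.26 in WT (SE 0.435, edgeR adjusted p = 0.0176) and by 1.57 in KO (SE 0.446, adjusted p = 0.00379). Its call in WT ended without replicate 1 of WT 0 h or replicate 3 of WT 24 h (adjusted p 0.0932 at most). Wdr59, a subunit of the GATOR complexes, rose by 1.15 in WT (SE 0.159, edgeR adjusted p = 6.11e-08) and by 1.63 in KO (SE 0.158, adjusted p = 7.06e-12). The list thus held activators and inhibitors among its rising genes. Its median change was 0.10 in WT and 0.26 in KO. No gene of the list passed by genotype in edgeR: at an unadjusted p below 0.05 there was none at 0 h and 1 in each direction at 24 h, where DESeq2 called 1 higher.

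Of 10 regulators and partners of the carriers, 8 were tested, and 2 rose and 4 fell in each genotype. The 2 of 8 that rose are near the share of all genes (20.2% in WT and 19.4% in KO), beside 20.5% and 21% of all genes that fell. Myc, a transcription factor known to raise Slc7a5 in activated T cells, rose by 1.20 in WT (SE 0.106, edgeR adjusted p = 3.33e-11) and 1.63 in KO (SE 0.109, adjusted p = 3.32e-14). Sgk1, a kinase that acts on carriers and channels, fell by 2.03 in WT (SE 0.156, adjusted p = 5.86e-15) and by 2.01 in KO (SE 0.168, adjusted p = 7.46e-14), and Nedd4, a ubiquitin ligase, fell by 1.30 in WT (SE 0.210, adjusted p = 1.66e-06) and by 1.43 in KO (SE 0.220, adjusted p = 6.53e-07). Between genotypes Myc was lower in KO 0 h. The WT libraries stood at 317, 259 and 300 CPM, those of KO at 256, 176 and 184 CPM, a difference of -0.50 (SE 0.107, adjusted p = 0.0237), with no overlap of libraries. The call ended without replicate 1 or 3 of WT 0 h, without replicate 2 or 3 of KO 0 h, and in a fit of only the 2 groups compared. The part of Myc in the level of Slc7a5 was not tested.

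Of 15 amino acid carriers of other families, 13 were tested. In WT 2 fell, the mitochondrial carriers Slc25a44 (-0.71, SE 0.153, edgeR adjusted p = 0.000165) and Slc25a12 (-0.51, SE 0.110, adjusted p = 0.00017), and none rose, at an unadjusted p below 0.05 or with DESeq2 likewise. Of all genes in WT, 20.5% fell and 20.2% rose. In KO 2 of the 13 rose and 2 fell, near or below the 19.4% and 21% of all genes. These were the lysosomal carriers Slc15a3 (1.55, SE 0.636, adjusted p = 0.047) and Pqlc2 (1.05, SE 0.403, adjusted p = 0.0331), and Slc25a2 (-2.10, SE 0.806, adjusted p = 0.0332) and Slc25a12 (-0.47, SE 0.112, adjusted p = 0.000614). Of 12 refits that each left out 1 library, 8 ended the call of Slc15a3 (highest adjusted p 0.328), 5 that of Pqlc2 (0.134) and 6 that of Slc25a2 (0.109), and none that of Slc25a12.

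Markers of cell types were measured beside these results. The summed level of 7 T cell markers was 5560 to 6610 CPM at 0 h and 2610 to 3000 CPM at 24 h, with 6 of 7 falling in WT and 7 of 7 in KO. B cell markers, 7 of 8 in the files, summed to 16.8 to 30.7 CPM at 0 h and 2.93 to 7.21 CPM at 24 h. Of these, Cd22 was lower in KO 0 h (mean 1.31 CPM) than in WT 0 h (7.40 CPM), by -2.49 on the log2 scale (edgeR adjusted p = 0.0118), a call that ended without replicate 3 of WT 0 h or any 1 library of KO 0 h. Macrophage and monocyte markers, 7 of 8 in the files, summed to 17.0 to 22.4 CPM at 0 h and 11.8 to 16.3 CPM at 24 h. Of the 5 tested, Itgam fell from a mean of 5.13 to 0.912 CPM in WT and from 5.72 to 0.734 CPM in KO (edgeR adjusted p = 7.97e-05 and 2.17e-05). In KO Fcgr3 also fell (adjusted p = 0.0252, lost in 3 of 12 refits without 1 library), while Mpeg1 rose from 0.850 to 4.02 CPM (adjusted p = 0.00189). Their sum therefore does not describe the single markers. Of 4 NK cell markers, the 2 with enough reads for the test moved in opposite directions, so the sum of all 4 (36 to 52.7 CPM at 0 h, 44.8 to 65.5 CPM at 24 h) describes neither. Klrb1c fell from a mean of 16.5 to 0.605 CPM in WT (log2 -4.60, edgeR adjusted p = 5.86e-15) and from 21.8 to 0.640 CPM in KO (log2 -5.01, adjusted p = 2.11e-15). Eomes, which activated T cells can also express, rose from 22.9 to 50.1 CPM in WT (adjusted p = 9.12e-09) and from 23.3 to 59.3 CPM in KO (adjusted p = 1.43e-10) and made up most of the sum at 24 h. Neutrophil markers summed to 8.65 to 20.1 CPM at 0 h and 1.24 to 9.18 CPM at 24 h. Most of this was Mpo, with 575 reads over all libraries, while S100a8 had 20 and S100a9 had 4. Dendritic cell and platelet markers stayed at or below 7.03 CPM in every library, and the haemoglobin genes Hba-a1, Hbb-bs and Hbb-bt were at 0. By genotype the 2 markers of CD8 T cells summed at 0 h to 17.3 to 18.5 CPM (WT) and to 30.7 to 35.7 CPM (KO), most of it Cd8b1, and over both genotypes to 8.08 to 14.7 CPM at 24 h. Cd8b1 was higher in KO 0 h by 0.85 on the log2 scale (edgeR adjusted p = 0.0176). Of 12 refits that each left out 1 library, 5 ended this call (highest adjusted p 0.121). Cd8a, with 59 reads over all libraries, was too low for the test, and its WT and KO libraries overlapped at 0 h. The part of the cell types named here in the levels of the carriers was not tested.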

How the data were processed

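RNA of 12 libraries, in 4 groups of 3 taken from the sample titles, was analysed from the deposited tables, which hold raw read counts per gene symbol made by the authors. Per the submitters' processing notes, STAR 2.6.0c, DESeq and the build hg19 were used. As hg19 is a human build and the symbols are of mouse genes, the build is uncertain, and no member coordinates are printed from the files. How reads were counted (program, annotation, strand) is not given in the sources used here. Per the labels' protocols, libraries came from total RNA with probe-based removal of ribosomal RNA. The 5 closing entries that name no gene were left out. They held 22.8% to 35.4% (no feature), 0.412% to 0.576% (ambiguous) and 25.7% to 30.9% (aligned to several places) of all reads per library.

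Library sizes were adjusted by TMM in edgeR 4.0.16 (R 4.3.3), also for CPM. Genes were kept by filterByExpr (minimum count 10, minimum total 15), which left 10981, and tested in 1 fit of the 4 groups with edgeR's robust quasi-likelihood test, Benjamini-Hochberg adjusted over all of them, with a threshold of 0.05. Standard errors (SE) were derived from the quasi-likelihood test, as the size of the log2 change over the square root of its F statistic. The biological coefficient of variation was 0.115. The script was tested on simulated data. Exon lengths and overlaps came from GENCODE M21 and promoters from RefSeq (GRCm38.p6), matched by symbol. Replicates of a group differed by more than sampling noise (chi-square per gene 3.12 to 15.1).

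The members and gene lists were chosen with earlier results of these data known. Every member with at least 30 reads was named. Full statistics were given for members past a genotype comparison or the interaction (the 3 of smallest p where none passed), for those gained from near zero, and for up to 10 per direction of largest change in WT over time. From each further list, up to 3 passing genes of largest change per comparison were named. Alternatives were DESeq2 1.42.0, RLE size factors, no filter, a minimum count of 30, Rn45s left out, a fit of only the 2 groups compared, a replicate block, other limits of near zero (0.5 and 2 CPM), and leaving out each library.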

Additional observations from a re-analysis of the deposited data

How the results depend on the processing

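Of the results, those that answer a comparison were recomputed 1563 times in all, of which 46 moved a count by more than 1.5 times and none reversed, and single named genes 581 times, of which 20 lost and 2 gained the threshold and none reversed. With DESeq2, 1 member was lower in KO at 0 h (Slc7a5, also 1 of the heavy and light chains), 1 member fell in WT, and 1 gene of mTORC1 sensing was higher in KO at 24 h. A minimum count of 30 left 1 member that fell in WT and, among other carriers in KO, 1 that rose and 1 that fell. Without a filter, 1 other carrier rose in KO. With only the 2 groups compared, 1 gene of mTORC1 sensing was higher in KO at 24 h and 0 regulators were lower in KO at 0 h. The cause of these shifts was not tested.

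Without 1 library, the members that fell numbered 1 to 2 in WT and 1 to 3 in KO, SLC38 genes that fell in KO 0 to 1, other carriers that rose in KO 0 to 2 and that fell 1 to 3, mTORC1 sensing genes that fell in KO 2 to 5, and regulators lower in KO at 0 h 0 to 1. Slc43a1 passed over time in KO without replicate 3 of KO 24 h (2.64, edgeR adjusted p = 0.0331). No other scaling moved the median of all genes by more than 0.0095 on the log2 scale.

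With the replicate number as a block, 1 member fell in WT, because Slc43a1 missed the threshold (edgeR adjusted p = 0.0606), the other 13 of 14 calls in WT and all 15 in KO were kept, and 1 other carrier rose in KO. Deviations of libraries with the same number correlated at -0.088 to 0.093, so the numbers were not taken to pair the samples; of 6 libraries in each comparison, 0 (KO against WT at 0 h), 2 (at 24 h), 5 (time in WT) and 4 (time in KO) correlated best with their own number. Below about 1 CPM a level rested on a few reads per library, which limits Slc43a1, Slc6a18 and the untested members.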

Other observations

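Among the 12 members with 1 to 29 reads, Slc1a2, the main glutamate carrier of glia, had 23 reads and Slc1a7 had 29, both spread over the 4 groups. Slc7a10, the partner of Slc3a2 for small neutral amino acids, had 20 reads, of which 13 stood in replicate 3 of KO 0 h (2.44 CPM), while the other 2 libraries of that group had none. Slc6a9 had all 7 of its KO 0 h reads in the same library.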
